A study of Caenorhabditis elegans with 12 samples.

Results

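The interaction of rotenone and age was taken as the rotenone difference at 15 days minus the rotenone difference at 5 days, where a rotenone difference is the log2 ratio of rotenone to DMSO (dimethyl sulfoxide, a solvent). All 12 RNA-seq libraries of the series entered this contrast, and 17166 of the 46748 genes of the count table had enough counts to be tested in it. Each library held RNA of whole Caenorhabditis elegans hermaphrodites of the wild-type strain N2, and the libraries formed 4 groups of 3. One group had 0.1% DMSO and was sampled at 5 days of age, and one had 0.1% DMSO and was sampled at 15 days. The other groups had 100 nM rotenone during 24 h that began at L4, which is the final larval stage before adulthood, and were likewise sampled at 5 and at 15 days. No group carried a mutation or transgene. The labels leave unsaid the duration of DMSO, whether rotenone was given in DMSO, the event that starts the count of days, the removal of offspring, and whether the 3 replicates of a group were grown apart. The p-values thus rest on a spread between samples that may be technical.

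Rotenone blocks complex I, the entry point of electrons from NADH into the mitochondrial respiratory chain. In the worm, the intestine is at once the gut, the main fat store and the source of yolk, and it carries much of the transcription of genes for fatty acid metabolism, detoxification and defence. As worms leave their reproductive period, yolk genes, digestive enzymes and cuticle collagens change strongly with age alone. A gene whose rotenone difference is absent in old worms can therefore have come to that state by movement of the DMSO worms, of the rotenone worms, or of both. Both rotenone groups had the drug at the same larval stage, so the older worms were also further in time from exposure. The interaction therefore does not separate age from time since rotenone, and their shares were not tested.

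Counts assigned to genes came to between 34307432 and 53716605 per library. The biological coefficient of variation was 3.26% at 5 days and 3.6% at 15 days, and the median standard error of a rotenone difference was 0.0710 at 5 days and 0.0829 at 15 days on the log2 scale. The first principal component, with 82.0% of the variance, separated the ages. Each replicate number had its own sequencing lane, and deviations of libraries in the same lane correlated by a median of 0.017 over 18 pairs of libraries. Transcripts of intestine, body wall muscle, pharynx, neurons and germ line were present in all 12 libraries, as whole worms would hold.

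Of the 17166 genes, 4419 passed the interaction test (25.7%, edgeR's quasi-likelihood F test, Benjamini-Hochberg adjusted p under 0.05). The rotenone difference was more positive at 15 days in 2643 of them (15.4%) and more negative in 1776 (10.3%). Scaling by library totals turned this split into 940 and 4295, because it moved the median interaction of all genes from -0.01 to -0.15 on the log2 scale. At 5 days 7668 genes (44.7%) differed between rotenone and DMSO, 3662 higher (21.3%) and 4006 lower (23.3%). At 15 days 70 genes did (0.408%), 48 higher (0.28%) and 22 lower (0.128%), and 1235 had an unadjusted p under 0.05. Between the ages 13079 genes (76.2%) differed in DMSO, 6050 higher (35.2%) and 7029 lower (40.9%) at 15 days. After rotenone 13647 did (79.5%), 6276 higher (36.6%) and 7371 lower (42.9%). With the sequencing lane as a block the count of rotenone calls at 15 days was 118, and without replicate 1 of DMSO at 15 days it was 31.

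A rotenone difference was called lost where it passed at 5 days, did not pass at 15 days and the interaction passed with the opposite sign. This held for 4211 genes, 54.9% of those called at 5 days, of which 1655 had been higher and 2556 lower after rotenone. Their median size was 0.28 on the log2 scale at 5 days and 0.0374 at 15 days, a contrast that the rule defining them favours. In 47 genes (0.613% of those called at 5 days) the difference was kept, meaning that it passed at both ages in the same direction, 36 higher and 11 lower. It was reversed in 8 genes and gained in another 8, which passed only at 15 days with an interaction of that sign. A further 7 genes passed only at 15 days, without an interaction call. The remaining 3402 genes called at 5 days (44.4%) could not be placed, since neither the 15-day difference nor the interaction passed. Their median standard error of the interaction was 0.1, against 0.0616 among the lost genes.

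**Figure D1:**
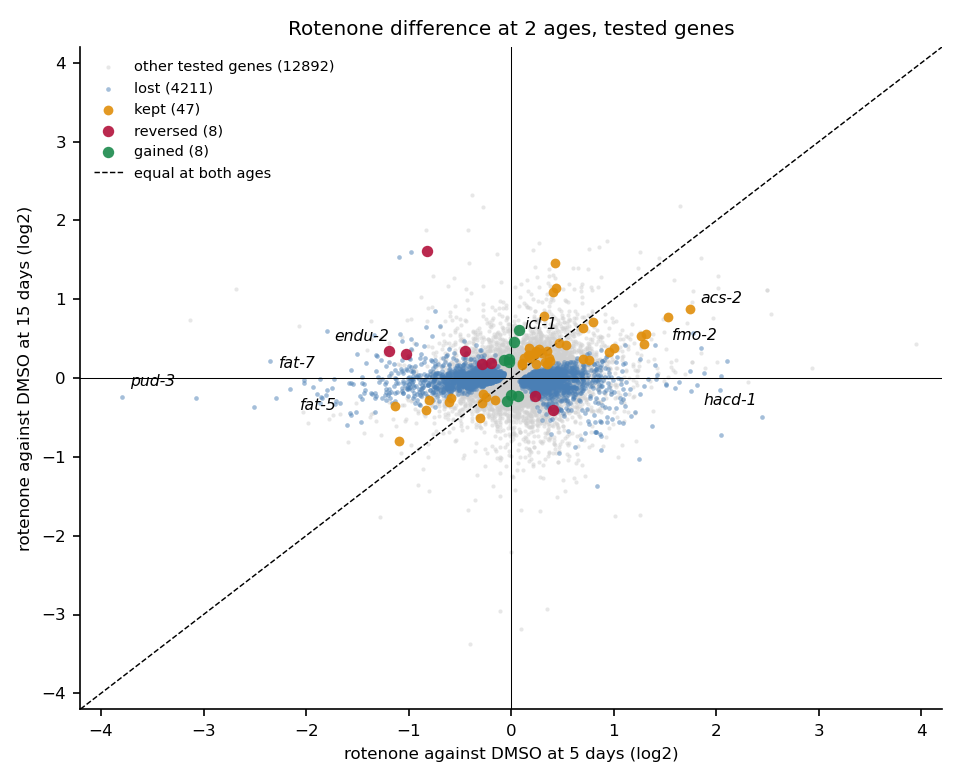
Rotenone difference at 15 days (vertical axis, log2) against that at 5 days (horizontal axis, log2), 1 point for each of the 17166 genes, coloured by whether the difference was lost, kept, reversed or gained. Most of the 4211 lost genes lie along the horizontal line at zero, which the rule for lost genes favours. Many points lie around the origin, through which the dashed line of equal differences passes. Of the genes called at 5 days with a 5-day difference of 1 or more in size, few lie near that line. The kept genes farthest to the right are acs-2 and fmo-2.

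The 5-day and 15-day differences share no library, so the 15-day values of genes called at 5 days are a separate measurement. Their 5-day values are not, since the genes were chosen by them, which favours large differences at 5 days. The 3662 genes higher at 5 days had a median difference of 0.32 then and of 0.02 at 15 days, and 61.6% still had the positive sign. Among the 115 of them with at least a 2-fold rise, the median went from 1.23 to 0.09, and 59.1% had the positive sign. The 4006 genes lower at 5 days went from a median of -0.22 to -0.01, with 58.1% still negative. Among the 133 with at least a 2-fold fall, the median went from -1.23 to -0.14 and 73.7% were still negative. Of all 248 genes with a 2-fold difference at 5 days, 154 were lost, 85 could not be placed, 7 were kept and 2 were reversed.

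In 1 group of lost genes, worms after rotenone were low at 5 days and stood at the DMSO level at 15 days. The largest interaction among genes with at least 5 CPM (counts scaled to a common library total) in a group was that of pud-3 (WBGene00017501, chromosome V, 2324634 to 2325152), from a small family named for proteins raised in mutants of the insulin receptor gene daf-2. Its libraries held 22.8, 24.0 and 19.9 CPM in DMSO and 1.79, 1.54 and 1.46 CPM after rotenone at 5 days, and 19.2, 16.8 and 17.4 CPM in DMSO and 19.6, 15.1 and 10.1 CPM after rotenone at 15 days. The 5-day groups lay far apart and the 15-day groups overlapped, with replicate 3 after rotenone the lowest. The difference was 13.9-fold lower at 5 days and 1.18-fold lower at 15 days, an interaction of 3.56 ± 0.25 (log2 ± SE, edgeR adjusted p = 8.98e-09). With age, pud-3 rose by 3.24 on the log2 scale after rotenone and fell by 0.32 in DMSO. The neighbouring gene pud-4 had an interaction of 2.83 ± 0.20.

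The same course was seen in fat-5 (WBGene00001397, chromosome V, 17725004 to 17726818), a desaturase that makes palmitoleic acid. It stood at 75.5, 87.6 and 81.2 CPM in DMSO and 20, 22 and 22 CPM after rotenone at 5 days. At 15 days it stood at 96.5, 99.1 and 96.6 CPM in DMSO and 88.7, 88.5 and 91.8 CPM after rotenone. The groups did not overlap at either age, but the gap had shrunk from 3.82-fold to 1.09-fold, and the latter did not pass (adjusted p = 0.492). The interaction was 1.81 ± 0.07 (adjusted p = 2.39e-12), with a rise of 2.07 with age after rotenone and of 0.26 in DMSO.

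For the yolk protein gene vit-4 the libraries held 151, 154 and 155 CPM in DMSO and 39.8, 42.2 and 42.1 CPM after rotenone at 5 days, and 207, 179 and 201 CPM and 186, 191 and 133 CPM at 15 days. Groups that lay apart at 5 days overlapped at 15 days, with an interaction of 1.69 ± 0.12 (adjusted p = 1.91e-08). The gene C32H11.4 (interaction 2.57 ± 0.27) rose by 2.11 with age after rotenone and fell by 0.45 in DMSO. A UDP-glucuronosyltransferase of detoxification, ugt-41, was 2.34-fold lower at 5 days, rose by 1.16 with age after rotenone and had an age difference of 0.11 in DMSO that did not pass (interaction 1.05 ± 0.08).

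In other lost genes the DMSO worms fell with age to the level that rotenone worms already had at 5 days. The stearoyl-CoA desaturase gene fat-7 (WBGene00001399, chromosome V, 7151353 to 7153146), which makes oleic acid, held 27.9, 27.5 and 26.7 CPM in DMSO and 6.14, 6.93 and 7.16 CPM after rotenone at 5 days. Its 15-day libraries held 5.59, 5.98 and 7.18 CPM in DMSO and 7.25, 6.62 and 4.43 CPM after rotenone. Of the 4 groups, DMSO at 5 days alone stood high, and the 15-day groups overlapped. The difference went from 4.06-fold lower to 1.02-fold lower, an interaction of 1.99 ± 0.16 (adjusted p = 7.77e-08), while the level fell by 2.12 with age in DMSO and had an age difference of -0.13 after rotenone that did not pass.

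T12D8.5 (WBGene00011733, chromosome III, 13625972 to 13626786) followed this course. It held 182, 184 and 195 CPM in DMSO and 45.6, 44.2 and 48.3 CPM after rotenone at 5 days, and 35.3, 41.7 and 41 CPM and 35, 39.0 and 39.2 CPM at 15 days. The interaction was 1.96 ± 0.08 (adjusted p = 3.74e-12), with DMSO falling by 2.25 with age and rotenone by 0.29. The invertebrate-type lysozyme gene ilys-5 (interaction 1.64 ± 0.14) fell by 1.47 with age in DMSO and had an age difference of 0.17 after rotenone that did not pass. In ftn-1, a ferritin that stores iron, DMSO fell by 0.80 and the age difference after rotenone, 0.07, did not pass (interaction 0.87 ± 0.06).

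Elsewhere both groups fell with age and met near a low level. The cytochrome P450, saposin and lectin genes cyp-35A2 (interaction 1.25 ± 0.08), spp-4 (1.41 ± 0.15) and clec-43 (1.85 ± 0.26) were 2.4-fold, 3.26-fold and 3.65-fold lower after rotenone at 5 days and fell further in DMSO than in rotenone worms. C09B8.4 (interaction 1.73 ± 0.18) was 3.32-fold lower at 5 days and stood between 0.843 and 1.09 CPM in every 15-day library. The acyltransferase gene oac-32 (2.14 ± 0.22) was 5.69-fold lower at 5 days but did not share this course. It fell by 1.81 with age in DMSO, less than its interaction, so its level after rotenone did not fall.

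Genes that were higher after rotenone at 5 days included hacd-1 (WBGene00019978, at 1460369 to 1461613 of chromosome V), which encodes a dehydrogenase of hydroxyacyl-CoA in fatty acid oxidation. It held 29.1, 27.6 and 26.8 CPM in DMSO and 98.9, 93.6 and 100 CPM after rotenone at 5 days, and 44.1, 42.9 and 40.4 CPM and 40.1, 43.5 and 36.5 CPM at 15 days. All rotenone libraries were the high ones at 5 days, and the groups overlapped at 15 days. The interaction was -1.89 ± 0.07 (adjusted p = 3.74e-12), and with age the level rose by 0.61 in DMSO and fell by 1.29 after rotenone.

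The enoyl-CoA hydratase gene ech-9 (WBGene00001158, chromosome IV, 10233310 to 10235329) held 14.3, 13.8 and 13.5 CPM in DMSO and 37.5, 34.9 and 35.3 CPM after rotenone at 5 days. At 15 days these were 2.14, 1.41 and 1.37 CPM and 0.993, 0.967 and 1.29 CPM. Its 15-day groups did not overlap and rotenone was then the lower, but that difference, -0.60 ± 0.17, did not pass (adjusted p = 0.221). The interaction was -1.98 ± 0.18 (adjusted p = 3.70e-07).

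Several glutathione S-transferases and cytochromes P450, enzymes that conjugate or oxidise foreign compounds, shared an early rise and a low late level. The gene gst-14 (WBGene00001762, chromosome II, 13614781 to 13616100) held 13.1, 13.9 and 11.4 CPM in DMSO and 42.3, 44.3 and 42.1 CPM after rotenone at 5 days, and between 0.412 and 0.630 CPM in all 6 libraries at 15 days. Groups that lay 3.35-fold apart at 5 days overlapped at 15 days (interaction -1.65 ± 0.25, adjusted p = 0.000101). For gst-30, gst-12, cyp-13A7 and cyp-13A8 the 5-day rise was 2.84-fold, 2.65-fold, 3.10-fold and 3.42-fold, and the interaction was -1.58, -1.43, -1.68 and -1.21. Their 15-day levels lay between 0.504 and 1.34 CPM, where a difference is measured less precisely: the standard error of the 15-day difference was 0.19 to 0.24 in these genes, against 0.05 in hacd-1. The remaining genes among the 12 most negative interactions that were lost were WBGene00012680 (-1.5), the lectin clec-9 (-1.48), nspe-6 (-1.39), R05D8.7 (-1.38) and nspe-2 (-1.31), all under 2 CPM in each 15-day library.

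**Figure D2:**
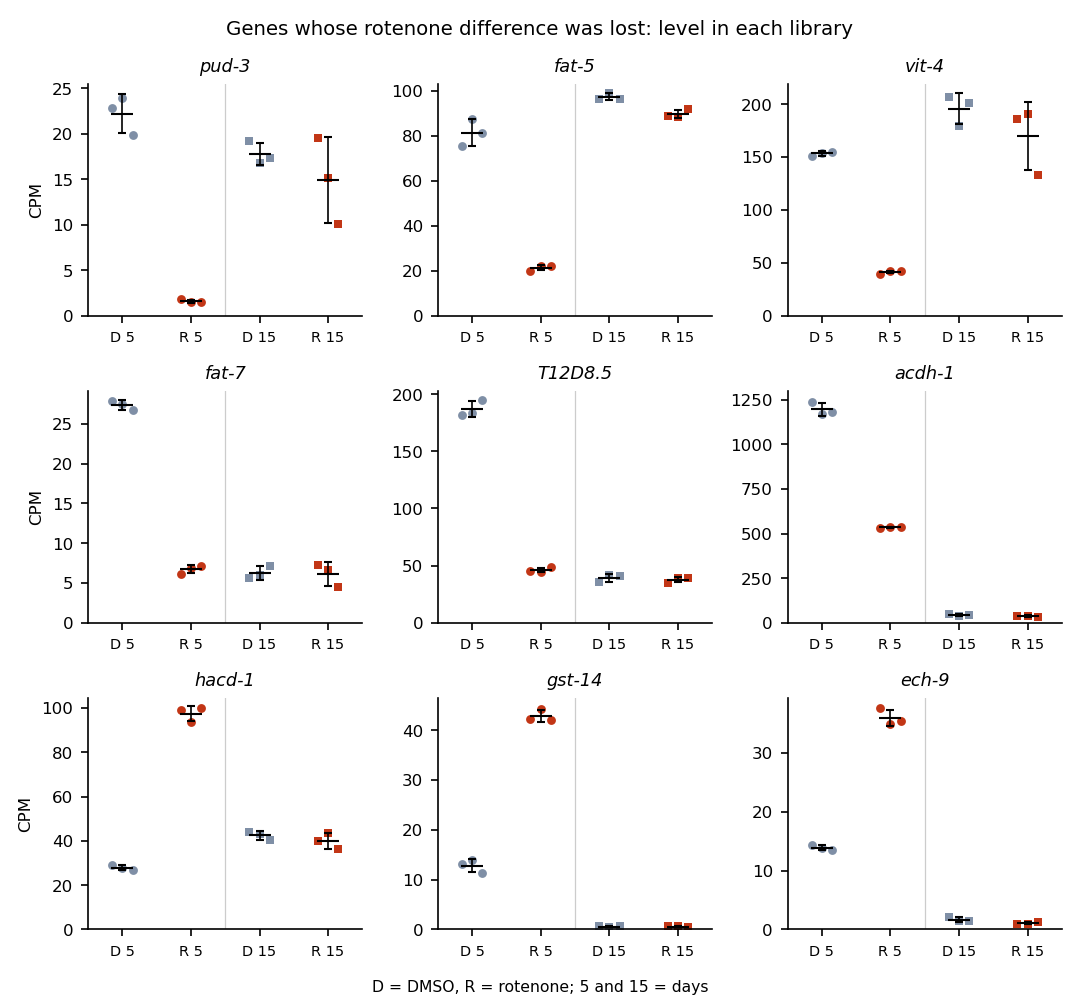
Level (vertical axis, CPM) in each of the 12 libraries for 9 genes whose rotenone difference was lost, by treatment and age in days (horizontal axis); points are libraries, the horizontal bars group means and the whiskers the SD of 3 libraries. In pud-3, fat-5 and vit-4 the rotenone libraries are high at 15 days, in fat-7 and T12D8.5 the DMSO libraries are low at 15 days, and in acdh-1, gst-14 and ech-9 both are.

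Of the collagen genes, which build the cuticle, 3 were among the 12 largest interactions in either direction, and their 15-day libraries spread widely. For col-139 the 15-day rotenone libraries held 1.70, 6.02 and 0.322 CPM against 1.23, 0.707 and 0.747 CPM in DMSO, and its interaction of 2.64 ± 0.61 came to 1.39 without replicate 2 of rotenone. In col-129 the same library held 6.4 CPM beside 2.04 and 0.470, and its interaction of 1.83 ± 0.62 passed in 4 of the 12 fits that each left out 1 library. The interaction of col-104, -1.57 ± 0.42, did not pass without replicate 1 of DMSO at 15 days, where it came to -0.97 (adjusted p = 0.0654). Of 156 tested collagens 20.5% passed the interaction test, under the 25.7% of all genes. Of them 21 had a positive and 11 a negative interaction. That direction turned to 11 and 24 with library totals and to 28 and 36 without a filter on low counts. It came to 21 and 20 with the lane as a block. At 15 days 2 collagens passed as higher and 4 as lower after rotenone. The 4 lower were col-49, col-63, col-138 and col-175, without an interaction call. In each, replicate 1 of DMSO was the highest 15-day library, as in col-138 with 7.05, 2.74 and 0.851 CPM in DMSO.

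The counts over gene lists that follow stand against the shares over all genes given above, which at 5 days were 21.3% higher and 23.3% lower, and for the interaction 15.4% positive and 10.3% negative. Since 0.408% of all genes passed at 15 days, a list in which none passed is near that background. The fat-synthesis genes moved in both directions. Of 20 tested genes for fatty acid synthesis, desaturation and elongation, 7 had a positive and 5 a negative interaction, 60% against the 25.7% of all genes. The desaturase genes fat-5, fat-6 and fat-7 were lower at 5 days and lost that difference. fat-6 was 2.28-fold lower and then differed by 0.03 at 15 days (interaction 1.22 ± 0.05), beside fat-5 and fat-7 above. The elongase genes elo-2 and elo-5 were higher at 5 days, by 1.61-fold (interaction -0.77 ± 0.07) and 1.23-fold (-0.47 ± 0.07). So was the fatty acid synthase gene fasn-1, by 1.37-fold (-0.41 ± 0.04). These were the called members with the largest interactions in each direction. Of all 20, 8 were lower and 6 higher at 5 days, and 11 were lost. None of the 20 passed at 15 days.

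Among 35 genes of fatty acid activation and beta-oxidation, 11 had a positive and 6 a negative interaction, a split that scaling by library totals turned to 4 and 11. The acyl-CoA synthetase gene acs-22 was 1.81-fold lower at 5 days, with an interaction of 0.81 ± 0.04, and the hydratase gene ech-7 was 1.81-fold higher, with -1.03 ± 0.10. Both were lost. One of the 35, acs-2, still passed at 15 days and is described with the kept genes.

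All 5 tested genes of the propionate shunt, a side route that breaks down propionate when vitamin B12 is scarce, were lower after rotenone at 5 days and lost that difference. Their median difference went from -0.75 to -0.04, and all 5 interactions were also positive when libraries were scaled by totals. The acyl-CoA dehydrogenase gene acdh-1, the first enzyme of the shunt, held 1240, 1170 and 1180 CPM in DMSO and 532, 536 and 539 CPM after rotenone at 5 days. At 15 days it held 47.9, 39.1 and 44.6 CPM and 35.9, 39.7 and 30.7 CPM, so that the groups overlapped at a level far below that of either 5-day group. Its 15-day difference of -0.31 ± 0.07 did not pass (adjusted p = 0.0627), and its interaction was 0.85 ± 0.09. The dehydrogenase gene hphd-1 had an interaction of 0.93 ± 0.07 and the hydrolase gene hach-1 of 0.74 ± 0.04. In these genes the shrinking ratio accompanied a fall in level with age of 4.77 (acdh-1), 3.19 (hphd-1) and 1.16 (hach-1) in DMSO.

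The 6 vitellogenins, the yolk proteins that the intestine secretes for the oocytes, were all lower after rotenone at 5 days and all lost the difference, with a median of -0.96 at 5 days and -0.11 at 15 days. Their levels with age did not follow a single course. vit-3 held 76.9, 78.2 and 80.8 CPM in DMSO and 26.9, 29.6 and 29.4 CPM after rotenone at 5 days, and rose to 284, 236 and 268 CPM and 250, 243 and 163 CPM at 15 days. vit-2 held 17900 to 19000 CPM in DMSO and 13600 to 14800 CPM after rotenone at 5 days and 3630 to 4140 CPM in all 15-day libraries. The interaction was 1.19 ± 0.15 in vit-3 and 0.40 ± 0.07 in vit-2. Summed over the family, the 5-day DMSO libraries held 55700 to 59200 CPM, the 5-day rotenone libraries 36800 to 39800 CPM and the 15-day libraries 11700 to 13400 CPM.

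Digestive proteases of the intestine behaved like the propionate shunt. Of 21 tested intestine markers 12 were lower and 2 higher at 5 days, none passed at 15 days, and 11 had a positive and 2 a negative interaction. The cathepsin B-like protease gene cpr-5 held 753, 825 and 831 CPM in DMSO and 321, 311 and 347 CPM after rotenone at 5 days, and at most 20.9 CPM in every 15-day library. Its interaction was 1.31 ± 0.09, beside 1.12 ± 0.06 in asp-5 and 0.95 ± 0.06 in asp-6, which encode aspartyl proteases. The transporter gene pgp-1 went the other way, with a 1.52-fold rise at 5 days and an interaction of -0.54 ± 0.06. In these whole-worm libraries, a smaller share of intestinal RNA and lower levels of these transcripts within the intestine cannot be told apart. The summed level of the 21 markers was 15700 to 16500 CPM in DMSO and 9380 to 10300 CPM after rotenone at 5 days. At 15 days it was 2270 to 2480 CPM over both groups.

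Markers of other cell types moved with the contrast as well. Of 16 pharynx markers 10 were higher after rotenone at 5 days, none passed at 15 days and 6 had a negative interaction, among them the pharyngeal myosin gene myo-1 (-0.39 ± 0.05) and the troponin T gene tnt-4 (-0.38 ± 0.09). Of 30 neuron markers 12 were higher at 5 days, none passed at 15 days and 9 had a negative interaction, led by the synaptic release genes unc-13 (-0.41 ± 0.06), unc-31 (-0.39 ± 0.10) and unc-10 (-0.35 ± 0.07). The neuron count was 18 with library totals and 6 with DESeq2. Summed pharynx markers stood at 478 to 498 CPM in DMSO and 579 to 598 CPM after rotenone at 5 days, and at 194 to 215 CPM over the 15-day libraries. No pharynx or neuron marker had a positive interaction under any of the scalings tried. The list of neuropeptide genes did not share the rise of the neuron markers. Of 99 tested, 7 were higher and 9 lower at 5 days, with a median difference of 0.0145, against 0.167 over the neuron markers. Their interaction was positive in 3 and negative in 6, or 2 and 15 with library totals.

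Body wall muscle was split. Of 21 markers 9 had a positive and 3 a negative interaction, which scaling by library totals turned to 5 and 5. The troponin and thin-filament genes tnt-2, unc-27 and unc-87 were 2.77-fold, 2.35-fold and 1.53-fold lower at 5 days and had interactions of 1.24 ± 0.14, 1.01 ± 0.10 and 0.52 ± 0.07. Among the 3 negative ones, the thick-filament genes myo-3 and unc-89 were 1.2-fold and 1.18-fold higher at 5 days, with interactions of -0.29 ± 0.06 and -0.30 ± 0.05. These genes were named for the largest called interactions in each direction and do not stand for thin or thick filaments as a whole. Of all 21 markers 12 were lower and 4 higher at 5 days. None of the 21 passed at 15 days.

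Of 18 markers of late embryos and larvae 10 were higher and 4 lower at 5 days, and 8 had a negative and 2 a positive interaction. The hatching protease gene hch-1 held 59.8, 59.6 and 72.8 CPM in DMSO and 102, 99.9 and 109 CPM after rotenone at 5 days, and 31.2 to 37.1 CPM at 15 days (interaction -0.64 ± 0.10). The summed level of this list was 905 to 934 CPM in DMSO and 921 to 933 CPM after rotenone at 5 days and 846 to 877 CPM at 15 days, so that the list as a whole did not separate the 5-day groups. Of 33 oocyte and embryo markers 10 had a positive and 4 a negative interaction, which scaling by library totals turned to 6 and 14. The germ-line helicase gene glh-1 (0.37 ± 0.04) and the eggshell genes perm-4 (0.46 ± 0.07) and perm-2 (0.39 ± 0.06) were among the positive ones. How much embryos inside the worms took part in any of these differences was not tested.

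**Figure D3:**
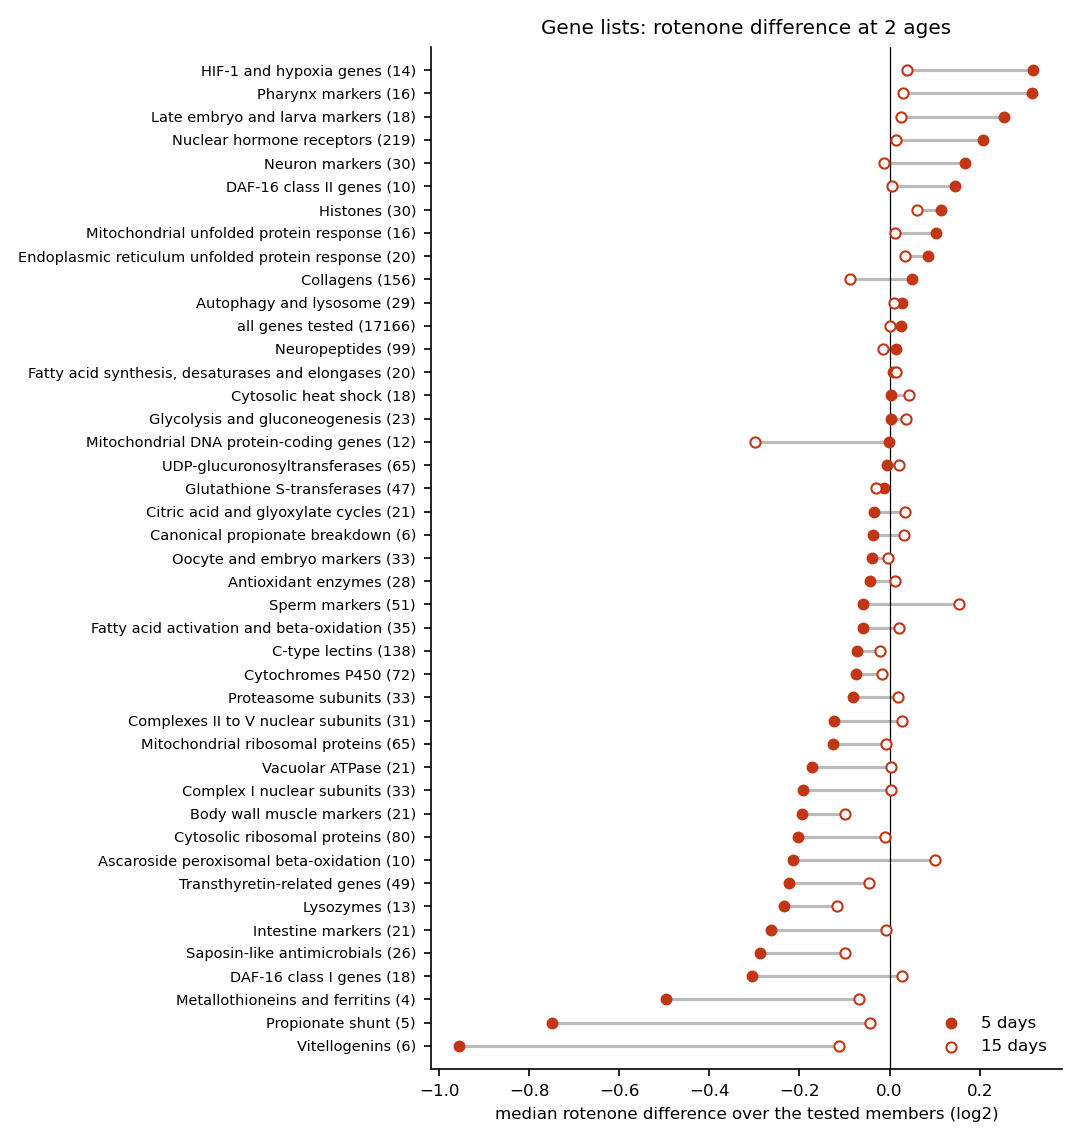
Median rotenone difference (horizontal axis, log2) over the tested members of each gene list with at least 4 such members, at 5 days (filled) and 15 days (open); the number of tested members stands beside each name. Most open points lie within 0.15 of zero, and the mitochondrial DNA genes run the other way, from near zero at 5 days to -0.30 at 15 days.

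Subunits of the respiratory chain encoded in the nucleus were slightly lower after rotenone at 5 days in the main fit. Their median 5-day difference was -0.192 in complex I and -0.123 in complexes II to V. Scaling by library totals brought these medians to -0.071 and -0.00259. Of 33 tested subunits of complex I, the target of rotenone, 24 were lower at 5 days, none passed at 15 days and 21 had a positive interaction, with a median difference of -0.19 at 5 days and 0.00295 at 15 days. With scaling by library totals 6 of the 21 interactions passed and the median interaction went from 0.162 to 0.0271. The largest was nduf-2.2, at 101, 103 and 94.4 CPM in DMSO and 75.5, 74.8 and 74.5 CPM after rotenone at 5 days and 151 to 161 CPM in every 15-day library. It had an interaction of 0.41 ± 0.05, followed by nduv-2 (0.30 ± 0.04) and ndua-8 (0.28 ± 0.05). The complex I gene gas-1, whose mutation makes worms sensitive to oxygen, did not pass in any of the 3 contrasts (interaction 0.07 ± 0.06, negative at -0.07 with library totals).

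Of 31 nuclear subunits of complexes II to V, 18 had a positive interaction, which scaling by library totals turned to 3 positive and 2 negative. Similar small shifts were counted in housekeeping complexes. Of 80 cytosolic ribosomal proteins 49 had a positive interaction and none a negative one, 19 and 7 with library totals. The values of rps-5, rps-18 and rpl-21 were 0.38 ± 0.06, 0.37 ± 0.05 and 0.36 ± 0.05. Of 21 subunits of the vacuolar ATPase, the proton pump of lysosomes and of the gut surface, 17 had a positive interaction, 2 positive and 1 negative with library totals. The proteasome, with 15 of 33 positive, and the mitochondrial ribosome, with 26 of 65 positive and 2 negative, had median interactions of 0.0992 and 0.118 that turned to -0.0353 and -0.0168 with library totals. In complex I, complexes II to V, the ribosome and the vacuolar ATPase the median stayed positive with library totals.

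The mitochondrial unfolded protein response, which induces chaperones and proteases when mitochondrial proteins misfold, had 16 tested genes, of which 8 were higher and 1 lower at 5 days, none passed at 15 days, and 5 had a negative and 1 a positive interaction. With library totals these were 11 and 0, and with relative log expression factors 3 and 1. The chaperone gene hsp-6, the usual reporter of this response, held 693, 731 and 659 CPM in DMSO and 804, 802 and 785 CPM after rotenone at 5 days, and 858, 858 and 860 CPM and 861, 891 and 935 CPM at 15 days. The rotenone libraries were the higher at each age, by 1.15-fold and 1.04-fold, and the second difference did not pass. Its interaction of -0.14 ± 0.05 (adjusted p = 0.0445) passed in 3 of the 12 fits that each left out 1 library. The protease gene spg-7 (-0.23 ± 0.05) and the chaperone gene hsp-60 (-0.23 ± 0.06) passed in all 12.

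Genes that the transcription factor DAF-16 activates when insulin signalling is low had 10 positive interactions and 1 negative one among 18 tested. Their median difference was -0.31 at 5 days and 0.03 at 15 days. At 5 days 10 were lower and 4 higher, and at 15 days 1 passed, as higher. Of the 10 positive interactions, 9 were lost falls and 1 was the gained gene. The lysozyme gene lys-7 held 610, 657 and 634 CPM in DMSO and 295, 306 and 317 CPM after rotenone at 5 days, and 319 to 388 CPM over all 15-day libraries (interaction 1.01 ± 0.08). dod-3 had an interaction of 1.04 ± 0.13, mtl-1, a metallothionein that binds zinc and cadmium, one of 0.52 ± 0.05, and the small heat shock gene sip-1, the negative one, -0.28 ± 0.06. The superoxide dismutase gene sod-3, a standard reporter of DAF-16, passed in none of the 3 contrasts (interaction -0.09 ± 0.16). All 4 tested metallothioneins and ferritins had a positive interaction, 3 of them with library totals, with ftn-2 at 0.41 ± 0.05.

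Of 14 tested targets and partners of HIF-1, the hypoxia-inducible factor, 7 were higher at 5 days and none lower, and 2 still passed at 15 days. The median difference over all 14 was 0.32 at 5 days and 0.04 at 15 days. The interaction was negative in 6 and positive in none, also with library totals (7 and none). The nuclear receptor gene nhr-57 (-0.36 ± 0.08) and the sulfide oxidoreductase gene sqrd-1 (-0.37 ± 0.08) were lost. Of the homologues of cysteine synthase that act in the hydrogen sulfide response, cysl-2 passed at 15 days in all 12 fits that each left out 1 library, while the 15-day difference of cysl-1 (0.22 ± 0.04) passed in 5 of them and its interaction in 1.

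Detoxification families split between both signs. Interactions were positive in 20 and negative in 11 of 72 cytochromes P450, 10 and 6 of 47 glutathione S-transferases, and 17 and 15 of 65 UDP-glucuronosyltransferases. With library totals these became 13 and 19, 8 and 10, and 10 and 19. The kappa-class transferase gstk-1 (0.87 ± 0.09) and ugt-6 (1.15 ± 0.20) were lower at 5 days, and ugt-19 was 2.04-fold higher (-0.76 ± 0.10). Of 28 antioxidant enzymes 7 had a positive and 3 a negative interaction, 2 and 4 with library totals, among them the peroxisomal catalase ctl-2 (0.59 ± 0.06) and the mitochondrial thioredoxin reductase trxr-2 (-0.31 ± 0.08). Of 219 nuclear hormone receptors, a family of ligand-regulated transcription factors, 100 were higher and 13 lower at 5 days, and 50 had a negative and 4 a positive interaction. The latter were 100 and 0 with library totals and 30 and 6 with DESeq2, and the 24.7% called lay near the 25.7% of all genes. One of them, nhr-127, held 3.23, 2.92 and 2.94 CPM in DMSO and 5.95, 5.54 and 5.40 CPM after rotenone at 5 days and under 2 CPM in each 15-day library (interaction -0.92 ± 0.18).

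Among the 47 kept genes, 16 had a smaller difference at 15 days by the interaction test, 28 could not be told from an equal difference, and 3 had a larger one. The 16 reduced genes kept 29.5 to 58.8% of the log2 difference of 5 days. Leaving out replicate 1 of DMSO at 15 days brought the kept genes from 47 to 22, so single names were weighed by the 12 fits that each left out 1 library.

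Of the 16 reduced genes, acs-2 had the largest difference at each age. This gene (WBGene00009221, chromosome V, 15567394 to 15569897) activates fatty acids for mitochondrial oxidation. At 5 days it held 35.2, 35.5 and 33.2 CPM in DMSO and 117, 115 and 116 CPM after rotenone. At 15 days it held 51.4, 56.3 and 51.3 CPM in DMSO and 98.2, 96.8 and 96.8 CPM after rotenone. The groups were far apart at each age, by 3.35-fold and 1.84-fold. The gap narrowed from both sides, as DMSO rose by 0.61 with age and rotenone fell by 0.26, and the interaction was -0.87 ± 0.05 (adjusted p = 1.22e-09).

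The flavin-containing monooxygenase gene fmo-2 (WBGene00001477, chromosome IV, 10682524 to 10684367), which is induced by hypoxia and fasting, held 9.43, 10.5 and 10.2 CPM in DMSO and 29.6, 28 and 29.4 CPM after rotenone at 5 days. At 15 days these were 2.72, 3.06 and 3.15 CPM and 5.48, 5.45 and 4.28 CPM. No libraries of the groups overlapped at either age, and the difference went from 1.53 ± 0.06 to 0.77 ± 0.10 on the log2 scale (15-day adjusted p = 0.000757). The P450 gene cyp-33C8 went from 1.32 ± 0.04 to 0.56 ± 0.04 and the alcohol dehydrogenase gene adh-1 from 1.26 ± 0.04 to 0.54 ± 0.04. For cysl-2 (WBGene00010759, chromosome II, 14492874 to 14494451) the 5-day libraries held 42.1, 46.5 and 40.3 CPM and 84.4, 87.6 and 85.7 CPM, and the 15-day libraries a mean of 15.0 ± 1.05 CPM (SD, n = 3) in DMSO and 20.5, 18.5 and 19.4 CPM after rotenone. Its difference shrank from 2-fold to 1.3-fold without overlap (interaction -0.62 ± 0.08, adjusted p = 1.64e-05). These 5 genes, acs-2 among them, passed at 15 days in all 12 fits that left out 1 library.

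Genes whose difference could not be told from an equal one were mostly small in effect. The neighbouring genes B0205.13 (WBGene00044644, chromosome I, 10727755 to 10728808) and B0205.14 (WBGene00044646, chromosome I, 10726088 to 10727386) were among the 28. B0205.13 held 73.7, 79.6 and 65.6 CPM in DMSO and 126, 132 and 123 CPM after rotenone at 5 days, and 15.8, 15.0 and 14.4 CPM and 23.9, 23.9 and 25.9 CPM at 15 days. The level fell by 2.28 with age in DMSO and by 2.37 after rotenone, while the ratio between them was 1.74-fold and 1.63-fold. Its interaction of -0.09 had a 95% interval of -0.27 to 0.09, and that of B0205.14, -0.07, an interval of -0.29 to 0.15.

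The aquaporin gene aqp-7, a channel for water and glycerol, held 87, 96.4 and 86.5 CPM in DMSO and 107, 109 and 110 CPM after rotenone at 5 days, and 46.8, 49.1 and 47.5 CPM and 62.7, 61.5 and 60.6 CPM at 15 days. The rotenone libraries were the higher at each age without overlap, by 1.21-fold and 1.29-fold, with an interaction interval of -0.02 to 0.21. A second aquaporin gene, aqp-1, was 1.45-fold and 1.34-fold higher, with an interval of -0.28 to 0.06. In 20 of the 28 such genes the interval of the interaction did not reach a loss of 50% of the 5-day difference. These genes had been chosen by passing at both ages, which favours equal values. Among those less firmly placed, the saposin gene spp-12 (-1.1 at 5 days and -0.79 at 15 days) passed at 15 days in 7 of the 12 fits. The P450 gene cyp-13B1 (0.46 and 0.45) did so in 9, all but those without replicate 1 or 2 of DMSO or replicate 3 of rotenone at 15 days.

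**Figure D4:**
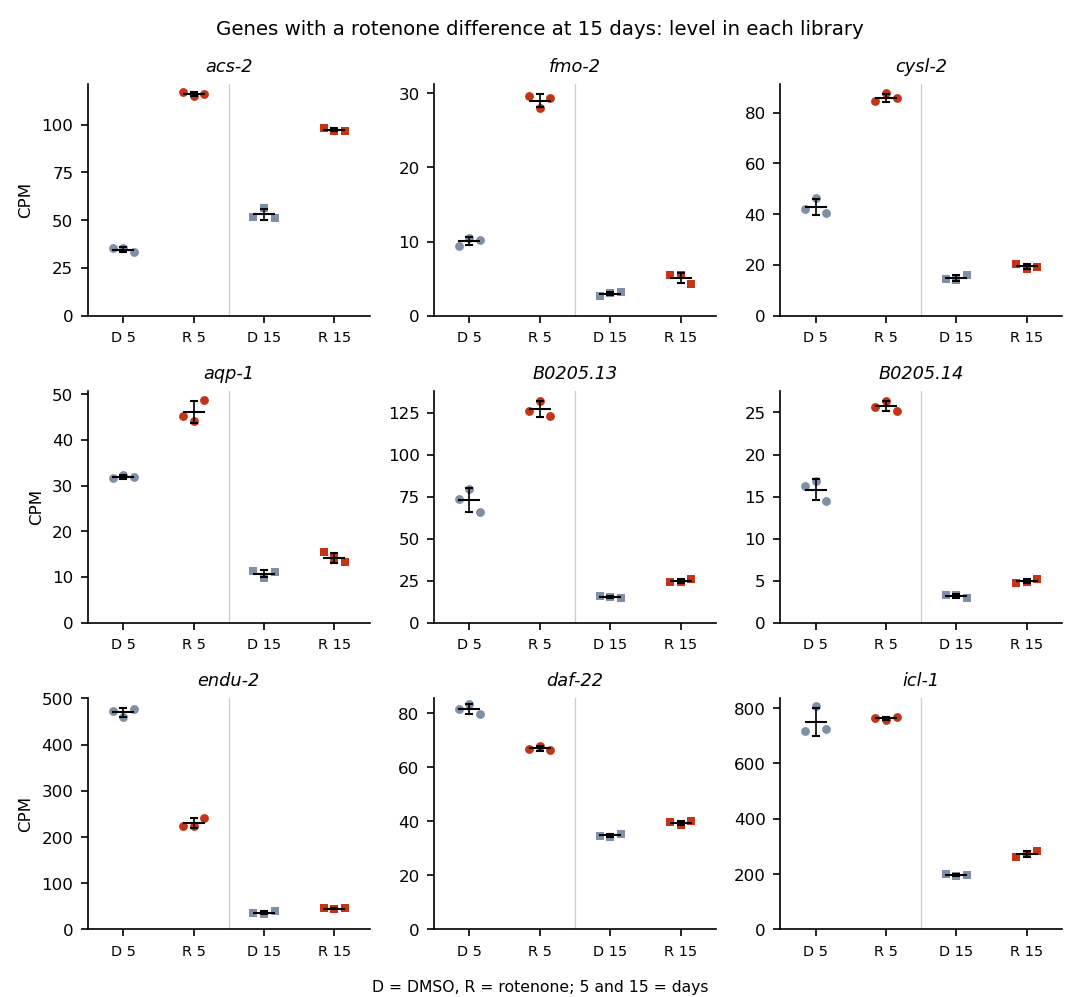
Level (vertical axis, CPM) in each of the 12 libraries for 9 genes that differed between rotenone and DMSO at 15 days, by treatment and age in days (horizontal axis); points are libraries, the horizontal bars group means and the whiskers the SD of 3 libraries. acs-2, fmo-2 and cysl-2 kept a reduced difference, aqp-1, B0205.13 and B0205.14 one not told from an equal difference, endu-2 and daf-22 reversed, and icl-1 differed only at 15 days.

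One reversed difference was that of endu-2 (WBGene00019779, chromosome X, 8242301 to 8247869), an endoribonuclease of the EndoU family. It held 472, 459 and 478 CPM in DMSO and 225, 223 and 242 CPM after rotenone at 5 days. At 15 days it held 35.6, 33.7 and 39.3 CPM in DMSO and 45.4, 43.5 and 46.2 CPM after rotenone. Rotenone was the lower group at 5 days and the higher at 15 days, without overlap either time. The difference went from -1.03 ± 0.04 to 0.31 ± 0.05 (15-day adjusted p = 0.00553), an interaction of 1.34 ± 0.06 (adjusted p = 4.48e-11), and passed at 15 days in all 12 fits that left out 1 library. Between the ages its level fell by 3.69 in DMSO and by 2.35 after rotenone.

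The thiolase gene daf-22 (WBGene00013284, chromosome II, 12423518 to 12425694) acts in the last step of the peroxisomal chain shortening that makes ascaroside pheromones. It held 81.4, 83.2 and 79.5 CPM in DMSO and 66.6, 67.8 and 66.3 CPM after rotenone at 5 days, and 34.7, 34.3 and 35.2 CPM and 39.8, 38.6 and 40.0 CPM at 15 days. The order of the groups turned without overlap, from -0.28 to 0.18, with an interaction of 0.47 ± 0.05 (adjusted p = 9.11e-07). The 15-day difference (adjusted p = 0.0214) did not pass without replicate 1 or 2 of DMSO or replicate 3 of rotenone at 15 days, where its adjusted p reached 0.078. Further steps of the same pathway lost their difference, the oxidase gene acox-1.6 (0.72 ± 0.07) and the dehydrogenase gene dhs-28 (0.44 ± 0.05). The oxidase genes acox-1.1 (0.10 at 5 days and 0.20 at 15 days) and acox-1.5 (-0.61 and -0.30) were kept, with a 15-day difference that passed in 7 and in 1 of the 12 fits. Of 10 tested genes of that pathway 4 had a positive interaction and none a negative one, 3 and 1 with library totals.

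The phosphatase gene pho-9 (WBGene00022181, chromosome III, 2757084 to 2760816) went from 56.1, 50.8 and 53.6 CPM in DMSO and 21.9, 24.4 and 24.0 CPM after rotenone at 5 days to 12.4, 13.5 and 13.2 CPM and 17.6, 15.8 and 15.8 CPM at 15 days. Again the lower group became the higher one, from -1.19 to 0.34 (interaction 1.53 ± 0.08). Its 15-day difference did not pass without replicate 1 of either group at 15 days, where the adjusted p reached 0.0993. C29F7.2 (-0.45 to 0.34) passed at 15 days in 8 of the 12 fits, srap-1 (0.23 to -0.22) and the fatty acid amide hydrolase gene faah-2 (-0.19 to 0.19) in 4. The interaction itself passed in all 12 fits for these 6 genes.

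Only 8 genes passed at 15 days alone with an interaction of that sign, 24 when the sequencing lane was a block. The largest difference among those over 5 CPM was that of icl-1 (WBGene00001564, chromosome V, 724332 to 728004), the enzyme that joins both glyoxylate cycle activities and lets the worm build sugar from fat. It held 717, 807 and 724 CPM in DMSO and 765, 758 and 769 CPM after rotenone at 5 days, and 201, 194 and 197 CPM and 262, 272 and 282 CPM at 15 days. The groups overlapped at 5 days and lay apart at 15 days, where rotenone was 1.38-fold higher (0.46 ± 0.04, adjusted p = 1.49e-06). The interaction was 0.43 ± 0.05 (adjusted p = 1.14e-05), and with age the level fell by 1.92 in DMSO and by 1.49 after rotenone. The kinase gene mak-1 had a 15-day difference of 0.21 ± 0.03 that passed in all 12 fits with 1 library left out. For mxl-3, a transcription factor of fat breakdown (0.23), C06B3.6 (0.24), the transcription factor ets-4 (-0.23) and R07E3.4 (-0.22) it passed in 6 or 7 of them.

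In the 12 protein-coding genes of mitochondrial DNA the fitted rotenone difference was below zero at 15 days. None passed at 5 days, where their median difference was -0.00168, and at 15 days the median was -0.298. The 15-day call was made in 2 of the 12, both lower, against 0.128% of all genes lower, and 7 had a negative interaction. The number of negative interactions was 1 with size factors of the relative log expression kind, 11 with library totals and 10 with the lane as a block, so the calls depended on the setting while the median interaction stayed between -0.406 and -0.245.

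Summed over the 12 genes, the 5-day libraries held 5850, 5250 and 5160 CPM in DMSO and 5560, 5520 and 4910 CPM after rotenone. The 15-day libraries held 4880, 4250 and 4100 CPM in DMSO and 3860, 3650 and 3530 CPM after rotenone. All rotenone libraries lay below all DMSO libraries at 15 days, with replicate 1 of each group the highest, and the groups overlapped at 5 days. ND4, a subunit of complex I and the gained gene of the list, held 234, 200 and 206 CPM and 211, 217 and 195 CPM at 5 days, and 170, 161 and 153 CPM and 136, 134 and 126 CPM at 15 days. Its difference was -0.04 ± 0.05 at 5 days and -0.29 ± 0.05 at 15 days (adjusted p = 0.0165), and the latter did not pass without replicate 1 of DMSO or replicate 3 of rotenone at 15 days. Its interaction, -0.25 ± 0.07, did not pass without replicate 2 of either group at 5 days. ATP6, a subunit of the ATP synthase, was the other gene called at 15 days (-0.34 ± 0.07, adjusted p = 0.0345), without an interaction call, and its 15-day difference passed in 7 of the 12 fits that left out 1 library. The mitochondrial genome is transcribed in long precursors, so its genes are not separate measurements.

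**Figure D5:**
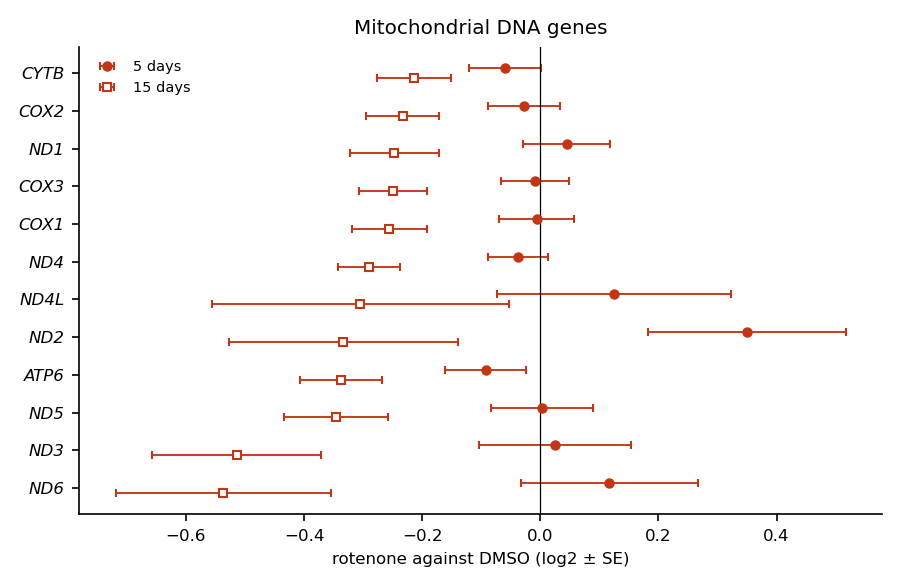
Rotenone difference (horizontal axis, log2, with whiskers of 1 standard error) of the 12 protein-coding genes of mitochondrial DNA (vertical axis) at 5 days (filled circles) and 15 days (open squares). All 12 open squares lie below zero, from -0.21 to -0.54, while the filled circles lie on both sides of zero.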

How the data were processed

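Whole-worm RNA libraries, 12 in all, were made with the TruSeq RNA v2 kit per the labels. The submitters' processing notes name bcl2fastq 1.8.3, STAR 2.4.1d, featureCounts 1.4.6-p4 and the build WBcel235, and their settings are not given in the sources used here. The authors deposited whole-number counts per gene without normalization, for 46748 genes, 28963 of them with at least 1 count, and these were used. The deposited RPKM table was not used here, because the ratios of counts to RPKM differed between libraries from what the totals of the count table give. Symbols and positions (WBcel235) came from the Ensembl annotation, which holds 46449 of the identifiers, and from the RefSeq table for mitochondrial DNA.

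The filter on low counts was filterByExpr of edgeR 4.0.16 (run in R 4.3.3), with its minimum set to 10. Libraries were scaled with TMM factors, also for CPM, and 1 quasi-likelihood model of 4 groups was fitted without covariates. Contrasts were tested two-sided with the F test over 17166 genes, and calls were made where the Benjamini-Hochberg value was below 0.05. The standard error is the log2 difference divided by the square root of F, and intervals are at 95%. Counts of multicopy families and of overlapping genes on opposite strands are uncertain, since the kit does not mark strand. Pairs of replicates differed by 3.04 to 13.1 times counting noise on average, so none was a copy of another. Replicate numbers mark shared sequencing lanes: deviations of libraries of the same lane correlated by -0.046 to 0.18, so the lane block was an alternative and not part of the model.

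Genes were named by a rule: at least 5 CPM in a group, then the 12 most positive and 12 most negative interactions, 8 each of the kept, reversed and gained genes by size, up to 3 called members per direction of a list, and a short set of genes named whatever their values. The genes cysl-1, aqp-1, aqp-7, mak-1, spg-7, ugt-41, ATP6, acox-1.1 and acox-1.5 were picked out or described at length after their values were seen. The members, the 43 gene lists and the tests were chosen with earlier results of these data known. Alternatives were other scalings, filters and tools (DESeq2 1.42.0, limma 3.58.1 with voom), the lane block, and each library left out in turn. Promoter sequences were not analysed here.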

Additional observations from a re-analysis of the deposited data

Results flagged for a closer look

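A rotenone difference that was not the same at both ages, by the interaction test of edgeR, held in 4419 genes. The reversed genes had interactions of 1.34 in endu-2, 1.53 in pho-9, 0.79 in C29F7.2, 0.47 in daf-22, 0.38 in faah-2 and -0.46 in srap-1, with all 6 passing at both ages in opposite directions. A further pair reversed at low levels: gpx-3, a glutathione peroxidase gene, had an interaction of -0.81 with group means under 5 CPM, and its 15-day difference passed in none of the 12 fits with 1 library left out. C23G10.11 had an interaction of 2.43 with every library under 1 CPM, from 0.842, 0.642 and 0.627 CPM in DMSO and 0.343, 0.436 and 0.410 CPM after rotenone at 5 days to 0.277, 0.118 and 0.207 CPM and 0.573, 0.719 and 0.619 CPM at 15 days.

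In 3 genes the rotenone rise was larger at 15 days as a log2 ratio, while the rise in CPM was smaller. The collagen genes col-165 and col-74 had interactions of 1.04 and 0.70, and mtre-1 one of 0.48. Their levels were 26.9 CPM or more in each 5-day library and 5.63 CPM or less in each 15-day library, with rotenone replicate 1 the highest of the 15-day libraries in all 3 genes. The change of that rise was -13.7 CPM in col-165, -9.9 CPM in col-74 and -5.9 CPM in mtre-1. The interaction passed in 7, 10 and 6 of the 12 fits with 1 library left out, and the 15-day difference in 4, 11 and 9.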

How the results depend on the processing

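Of the 4419 interaction calls, 2716 (library totals) to 4391 (TMM within each age) were made with the same sign under each of 10 other settings, and none with the opposite sign. The positive and negative calls came to 940 and 4295 with library totals and to 1636 and 2697 with upper-quartile factors, and the negative calls to 1050 with DESeq2. An added fold limit of 1 on the log2 scale left 234 calls. Without a filter on low counts 322 genes passed at 15 days, 189 were kept, 43 reversed and 57 gained. A filter at 50 counts left 5 reversed. With limma voom 40 genes passed at 15 days, 30 were kept, 4 reversed and 4 gained, and with group weights these were 41, 31, 4 and 4. With the lane as a replicate block 118 passed at 15 days and 24 were gained, and negative interactions among collagens went from 11 to 20; the block moved no other count in this paragraph by over 1.5 times. The median 15-day difference of genes higher at 5 days was 0.00259 with library totals, and that of genes lower at 5 days -0.0327 with library totals and 2.34e-05 without a filter. The cause was not tested.

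Leaving out 1 library at a time gave 3446 to 4222 interaction calls, 31 to 77 genes at 15 days, 22 to 53 kept, 3 to 10 reversed and 4 to 19 gained; the lowest counts at 15 days, of kept and of reversed genes came without replicate 1 of DMSO at 15 days. The medians ranged from 0.0207 to 0.0402 for genes higher and from -0.0118 to 0.000159 for genes lower at 5 days, the positive value without replicate 2 of DMSO at 15 days. Interactions that changed sign were near zero: cyp-13B1 was 0.0135 with relative log expression factors, 0.0158 with DESeq2 and -0.094 to 0.0873 with libraries left out, aqp-7 was -0.0408, acox-1.1 -0.0405 and gas-1 -0.0695 with library totals, and sod-3 ranged from -0.233 to 0.0039 with libraries left out. Precision was lower at low counts: the standard error of the 15-day difference was 0.24 in cyp-13A8 and 0.05 in hacd-1.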
